A study of Drosophila melanogaster with 24 samples.

Results

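The mRNAs described here encode *brat* itself and 9 other RNA-binding or translation factors that act on maternal transcripts in the *Drosophila* egg and early embryo: *pum*, *nos*, *smg*, *cup*, *me31B*, *tral*, *orb*, *Fmr1* and *pAbp*. They were picked by gene name, as every transcript on the array whose symbol was one of these 10. This gave 17 transcripts of 10 genes, out of 17769 transcripts of 13634 genes with values. The array held 1 transcript each of *brat*, *nos*, *smg*, *cup*, *tral* and *pAbp*, 2 of *me31B* and 3 each of *pum*, *orb* and *Fmr1*. All 10 genes were among the 5718 that counted as expressed. These had some transcript that passed a test for exceeding its samples' overall transcript mean in 1 or more of the 8 groups.

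RNA came from whole embryos on custom NimbleGen microarrays, with 3 biological replicates of each of 2 maternal genotypes at each of 4 times post egg-laying, 24 samples in all. *brat* mutant embryos were laid by *brat*fs1/*Df(2L)TE37C-7* females, which carried the *fs1* allele, an amino acid substitution in the RNA-binding NHL domain, over a deficiency of the region. Their fathers came from the same cross and mostly carried *brat*fs1 or the deficiency over *CyO*, so the embryos differed from the control in zygotic genotype too. Wild-type embryos came from *w1118* flies, and no group received a treatment. The 4 collection windows, called the first, the second, the third and the last below, each spanned 1.5 h and began 0, 1.5, 3 and 4.5 h after egg laying, so that embryos of a window differed in age by up to 1.5 h. The values are log2 signals that the authors normalized together, so a level is relative to the other transcripts of its sample, and fewer cells with an mRNA and less of it per cell cannot be told apart. Since each probe set has its own brightness, levels are compared between groups and not between genes.

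In the embryo the first hours run on mRNA and protein stored by the mother. Translational repressors keep many of these mRNAs silent or confined to a place, and at the maternal-to-zygotic transition the stored mRNAs are cleared, in part by the same proteins through deadenylation, while zygotic transcription starts. BRAT, an NHL-domain protein, Pumilio, a PUF-domain protein, and Nanos, a zinc-finger protein, are known for repressing *hunchback* mRNA together. Smaug brings the CCR4-NOT deadenylase to its targets, Cup binds eIF4E and blocks initiation, and the helicase ME31B and its partner Trailer hitch hold repressed mRNAs in granules. Orb (the CPEB protein), FMRP and the cytoplasmic poly(A)-binding protein complete the set. The mRNAs of these factors are themselves maternal, which raises the question of how they fare through the transition and without maternal *brat* function.

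Sample medians lay between 8.7 and 8.83 over all transcripts, and replicates of a group correlated at 0.924 to 0.967 across expressed genes (Pearson). The dyes were partly confounded with genotype: *brat* mutant replicates 1 and 3 and wild-type replicate 2 were labelled with one dye and the others with the other. None of the 11 follicle cell and chorion genes measured was expressed, and their mean level lay between 8.07 and 8.23 in every group. The mean of 10 blastoderm genes was lowest in the first window in both genotypes and highest in the second window (8.91 and 11.76 in wild-type embryos, 9.48 and 11.48 in *brat* mutant embryos). That of 8 germ band genes rose up to the third window, from 8.36 to 11.09 in wild-type and from 8.80 to 10.78 in *brat* mutant embryos. It changed little from the third window to the last (to 11.11 and 10.74). The blastoderm mean fell between these windows, from 11.35 to 10.68 in wild-type and from 10.94 to 10.20 in *brat* mutant embryos. The labelled stages thus stood in order, but in the first window both zygotic sets were higher in all *brat* mutant samples than in any wild-type sample (blastoderm at least 9.07 against at most 9.01, germ band at least 8.72 against at most 8.43), and in the last window both were lower in all of them (at most 10.28 against at least 10.50, and at most 10.88 against at least 10.99). In the second window the mean of the blastoderm genes was lower in all *brat* mutant samples (at most 11.50 against at least 11.61). This was not a shift of the whole set. The 9 of these genes that counted as expressed had a median difference of −0.0045 there (from −1.12 to 0.24). Of these 9, 2 passed as lower with limma (*kni* and *eve*) and 0 as higher. The germ band genes overlapped there (9.65 to 10.27 in *brat* mutant and 9.26 to 9.72 in wild-type samples). In the third window the genotypes overlapped for both sets (blastoderm 10.52 to 11.19 in *brat* mutant and 11.18 to 11.44 in wild-type samples, germ band 10.61 to 11.11 and 10.93 to 11.33). The *brat* mutant means of the third window were lower for both (10.94 against 11.35 and 10.78 against 11.09). The part of these shifts in the genotype differences was not tested in any window.

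Between the genotypes few of the 10 mRNAs passed the test, *smg* late and *brat* early. In the first window 1 of 10 (*brat*) was lower in *brat* mutant embryos and none higher at an FDR of 5% with limma, where 3.85% of all expressed genes were lower and 4.88% higher. All 5 mRNAs whose samples did not overlap between the genotypes lay below the wild type there (*brat*, *nos*, *cup*, *tral* and *orb*), as did 16.1% of all expressed genes, while 13.3% lay above. For the second window limma called none (4.32% of all expressed genes were higher and 3.66% lower). There were 3 with an unadjusted p under 0.05 (*nos*, *me31B* and *orb*, all lower), and 1 member passed with the spread of all 24 samples and 1 with limma-trend, *me31B* in both. All samples lay below the wild type for 4 (*nos*, *cup*, *me31B* and *orb*) and above it for 1 (*pAbp*), and 16.3% and 14.1% of all expressed genes did so.

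In the window from 3 h on, 1 of 10 (*smg*) was higher, against 2.26% of all expressed genes, and none lower, against 1.42%. Here 4 mRNAs lay above the wild type in all samples (*pum*, *smg*, *tral* and *pAbp*), as did 13.7% of all expressed genes, and 1 lay below (*me31B*), as did 16.1%. By the last window again 1 of 10 was higher (*smg*), against 6.52% of all expressed genes, and none lower, against 5.7%, and 2 lay above in all samples (*smg* and *pAbp*), as did 15.4%. The share in the third window rests on 210 genes, a count that fell to between 8 and 38 without any 1 of its samples other than *brat* mutant replicate 2, and was 333 without that one. A single call among 10 members is too few to set them apart from these background shares. The median difference of the 10 was −0.20, −0.16, 0.07 and 0.10 in the 4 windows, where that of all expressed genes was −0.03, −0.04, −0.05 and −0.09. Of the 10 differences 8 were negative in each of the first 2 windows and 6 positive in each of the last 2.

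*brat* mRNA, from the mutated gene itself, was measured by 1 transcript and was not lost in the mutant. The mothers carried the *fs1* allele, which changes an amino acid, over a deficiency of the region. No loss of the mRNA was thus needed for the labels to be right. The part of the deficiency in its level was not tested. In the first window it was at 13.19, 13.40 and 13.27 in *brat* mutant embryos and at 13.85, 14.24 and 13.79 in wild-type embryos, so that all mutant samples lay below all wild-type samples. The log2 difference was −0.67 (standard error 0.18, adjusted p = 0.0487 from limma), or 1.60-fold lower. This call was at the edge of the threshold: leaving out any 1 of the 6 samples ended it (−0.76 to −0.53, adjusted p = 0.0544 to 0.142), as did a dye term (−0.72, adjusted p = 0.0701). Later the wild-type samples lay at 13.51, 13.78 and 13.89, at 13.98, 14.27 and 14.20 and at 14.40, 14.22 and 14.30, and the mutant samples at 13.94, 13.85 and 13.72, at 14.18, 14.12 and 14.05 and at 14.21, 14.18 and 14.29. The genotypes overlapped in these 3 windows, with differences of 0.11, −0.03 and −0.08. The last but one changed sign when each sample was scaled to its mean over 79 ribosomal protein genes (0.01).

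*brat* was also the only one of the 10 with a rise that passed in the fits of a single genotype without other terms. Its 3 *brat* mutant samples went from 13.19 to 13.40 in the first window to 13.72 to 13.94 in the second window, a rise of 0.55 (standard error 0.15, adjusted p = 0.014 from limma), and to 14.18 to 14.29 in the last window, a rise of 0.94 from the start (standard error 0.15, adjusted p = 0.000244). That first rise was lost under ribosomal protein scaling (0.28, adjusted p = 0.289 from limma) and in 2 of 6 fits without a sample, those without replicate 1 of either window. Wild-type embryos gave a change of 0.35 over the course (limma, standard error 0.18, adjusted p = 0.109), which was −0.07 under that scaling. The genotype difference at the 3 later windows exceeded that in the first window by 0.79, 0.64 and 0.59, none of which passed (adjusted p = 0.06, 0.0818 and 0.0948 from limma on all 24 samples).

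*smg* differed most between the genotypes among the 10 mRNAs. In wild-type embryos it held its level through 3 h and then fell, whereas in *brat* mutant embryos all 12 samples to 6 h lay at 13.83 or above. In wild-type embryos the 3 replicates were at 14.71, 14.88 and 14.82 in the first window and at 14.74, 14.96 and 14.85 in the second window. They were at 13.05, 13.17 and 12.94 in the third window and at 11.75, 13.23 and 12.85 in the last window. The *brat* mutant replicates were at 15.08, 14.89 and 14.74, then at 14.84, 14.71 and 14.58, then at 14.49, 13.83 and 14.80, and last at 14.66, 14.36 and 14.66. The genotypes overlapped at the first 2 windows, and every *brat* mutant sample lay above every wild-type sample at the last 2.

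**Figure D1:**
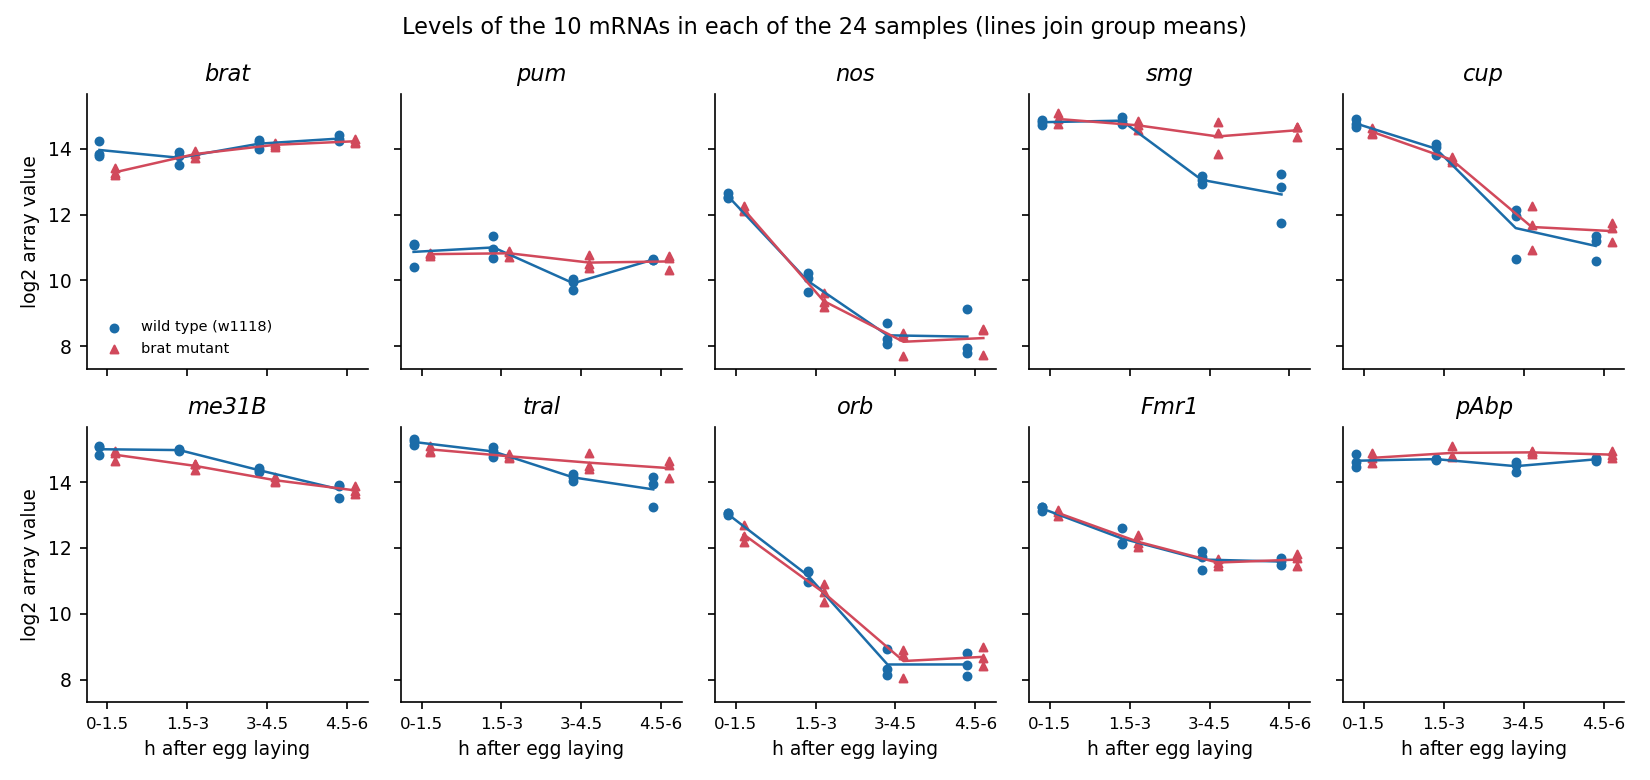
Level of each of the 10 mRNAs (log2 array value, vertical axis) in the 24 samples against the collection window (horizontal axis, h after egg laying), with wild-type samples as circles, *brat* mutant samples as triangles and lines through the group means. In the *smg* panel the genotypes part after 3 h, with wild-type samples at 11.75 to 13.23 and *brat* mutant samples at 14.36 to 14.66 in the last window, while *nos*, *orb* and *cup* fall in both genotypes.

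Tested within each window, *smg* was higher in *brat* mutant embryos in the third window, with a log2 difference of 1.32 (standard error 0.27, adjusted p = 0.0399 from limma), and in the last window, with one of 1.95 (standard error 0.35, adjusted p = 0.0113), which is 3.87-fold. In the first window the difference was 0.10 (95% interval −0.23 to 0.43) and in the second window −0.14 (−0.51 to 0.23). The 95% intervals here and below use the normal approximation, so they are too narrow for so few samples. The difference in the last window stayed between 1.52 and 2.26 and passed in each of the 6 fits that left out 1 sample, and its lowest value, 1.52, was that without wild-type replicate 1, the sample farthest from the others. The call in the third window was less firm. Leaving out any 1 of the 6 samples other than *brat* mutant replicate 2 ended it (adjusted p = 0.0916 to 0.121 from limma), as did a dye term (1.15, adjusted p = 0.0707). It was also lost with no filter on expressed transcripts (adjusted p = 0.0588 from limma).

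The difference between the windows was tested in a fit of all 24 samples. Contrasts with the first window were planned, and those with the second window were added after seeing the data. The genotype difference of *smg* in the last window exceeded that in the first window by 1.85 (standard error 0.38, adjusted p = 0.0039 from limma) and that in the second window by 2.09 (standard error 0.38, adjusted p = 0.00223). In the third window it exceeded that in the first window by 1.22 (adjusted p = 0.0617) and that in the second window by 1.46 (adjusted p = 0.0285). *smg* was the 1 of 10 called higher in each of these 3 contrasts that passed, where 3.41% of all expressed genes were called higher for the last against the first window, 5.23% for the last against the second and 2.85% for the third against the second. For *smg* the contrast of the third window with the second window was lost in 5 of 12 fits that left out a sample, those without *brat* mutant replicate 3 or wild-type replicate 2 of the second window and without *brat* mutant replicate 1 or 3 or wild-type replicate 3 of the third. Since the contrasts at a window share its samples, they are not independent of each other.

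Among the 8 group levels of *smg*, ordered from high to low, the 6 groups made up of all *brat* mutant windows and the 2 early wild-type windows formed the upper part, and no neighbours within it differed (all adjusted p at least 0.74). Only the step from *brat* mutant embryos in the third window down to wild-type embryos in the third window passed, with a log2 difference of 1.32 (standard error 0.27, adjusted p = 0.00243 from limma on all 24 samples). It is the genotype contrast of the third window given above, with the spread of all 24 samples, and no separate result. Over time, *smg* fell in wild-type embryos by 1.80 on the log2 scale between the second and the third window (standard error 0.29, adjusted p = 0.000271 from limma) and fell by 2.19 over the whole course (standard error 0.29, adjusted p = 2.5e-05). For *brat* mutant embryos the change over the whole course was −0.34 (standard error 0.23, adjusted p = 0.243), and it passed after scaling to ribosomal protein genes (−0.68, adjusted p = 0.0385).

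*nos* and *pum*, the partners of BRAT on *hunchback* mRNA, differed from each other in their course. *nos*, the posterior determinant, was at 12.67, 12.53 and 12.50 in wild-type embryos in the first window and at 9.66, 10.06 and 10.24 in the second window. Its *brat* mutant samples were at 12.12, 12.26 and 12.10 and then at 9.19, 9.33 and 9.61. In the third and the last window all 12 samples lay between 7.69 and 9.15, and the genotypes overlapped.

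*nos* fell by 4.27 on the log2 scale over the whole course in wild-type embryos (standard error 0.31, adjusted p = 1.3e-07 from limma) and *nos* fell by 3.91 in *brat* mutant embryos (standard error 0.25, adjusted p = 1.7e-07). From the second window on, *nos* did not pass the test for exceeding the overall transcript mean in any group. It thus counted as expressed only through the first window, from which these falls are measured, so the filter favours a fall. The falls ended at group means of 8.29 in wild-type and 8.25 in *brat* mutant embryos. These lay below the sample medians (8.7 to 8.83) and above the lowest value on the array (7.05), so the floor may limit the falls. At the first 2 windows *nos* was lower in every *brat* mutant sample than in any wild-type sample, but the differences did not pass (−0.41, adjusted p = 0.151 in the first window, and −0.61, adjusted p = 0.134 in the second window, from limma).

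*pum* dipped in the third window in wild-type embryos, and no step of it passed in *brat* mutant embryos. Averaged over its 3 transcripts, wild-type samples were at 10.40, 11.07 and 11.12 in the first window, at 10.69, 11.35 and 10.97 in the second window, at 9.72, 10.06 and 9.96 in the third window and at 10.61, 10.66 and 10.62 in the last window. *brat* mutant samples were at 10.81, 10.83 and 10.75, at 10.90, 10.70 and 10.87, at 10.48, 10.36 and 10.77 and at 10.30, 10.67 and 10.75. Only in the third window did the genotypes not overlap.

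In wild-type embryos *pum* fell by 1.09 between the second and the third window (standard error 0.22, adjusted p = 0.00154 from limma). The value in the last window was 0.72 above that in the third window (standard error 0.22, adjusted p = 0.0632), and this rise passed in the fit of all 24 samples (adjusted p = 0.0216) and with a dye term (0.0444). The genotype difference in the third window was 0.63 (standard error 0.20, adjusted p = 0.116 from limma) with the 6 samples of the window, and 0.63 (adjusted p = 0.0356) with the spread taken from all 24 samples. The difference of this value from that in the second window was 0.81 (standard error 0.28, adjusted p = 0.0925 from limma). Among the transcripts, pum-PA passed the test for exceeding the overall transcript mean in all 8 groups, while pum-PB did so only in the first 2 windows and pum-PE in 1 group. At the wild-type dip pum-PA stood at 12.21 in *brat* mutant and 11.40 in wild-type embryos, a difference of 0.82 (standard error 0.24, adjusted p = 0.1 in the limma fit of single transcripts), and all 3 transcripts had a positive difference.

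**Figure D2:**
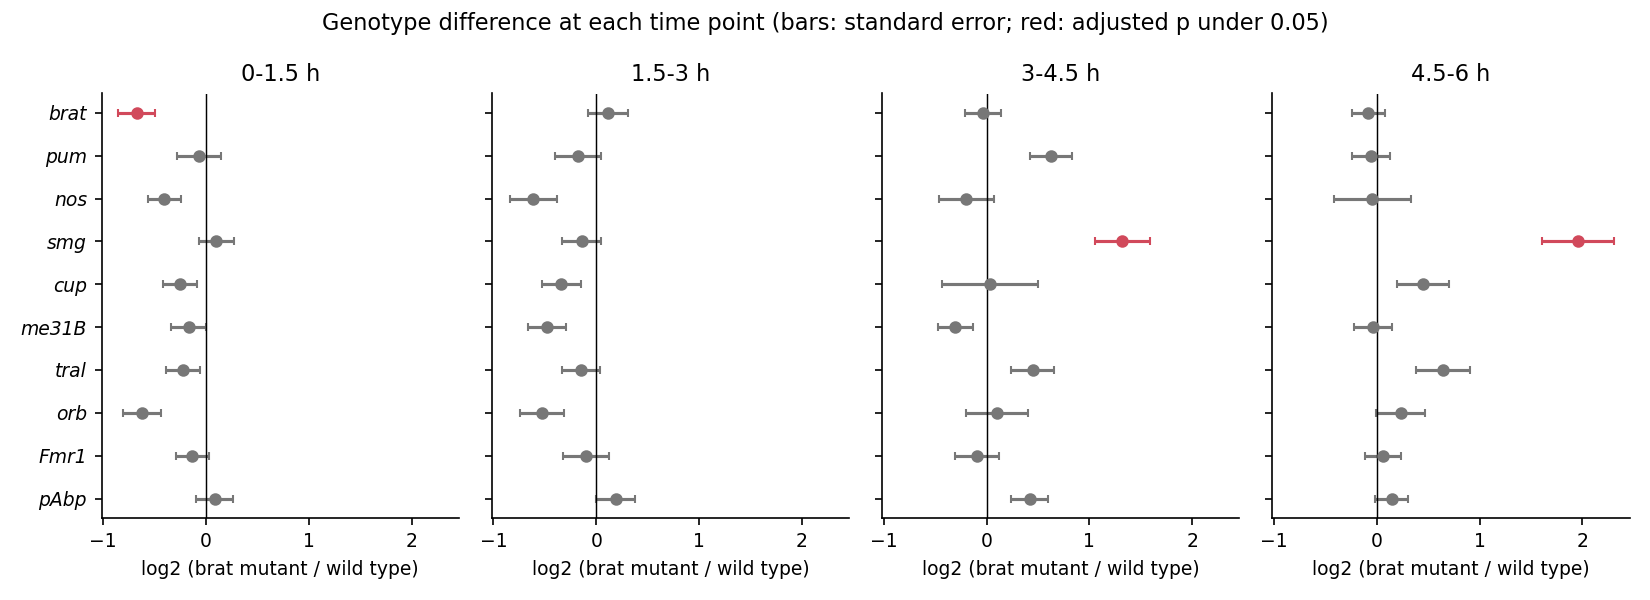
Log2 difference of *brat* mutant over wild-type embryos (horizontal axis) for each of the 10 mRNAs (vertical axis) in the 4 collection windows, with the standard error from limma as bars and red marking an adjusted p under 0.05. *brat* is marked in the first window (−0.67) and *smg* in the third window (1.32) and the last window (1.95), and no mRNA is marked in the second window.

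The repressor complex of Cup, ME31B and Trailer hitch gave 3 mRNAs with steps of different size. *cup* was at 14.64, 14.90 and 14.75 in wild-type embryos in the first window, at 14.06, 14.15 and 13.79 in the second window, at 12.14, 10.66 and 11.96 in the third window and at 10.58, 11.36 and 11.20 in the last window. The *brat* mutant samples were at 14.47, 14.63 and 14.44, at 13.75, 13.58 and 13.65, at 11.68, 10.92 and 12.26, and at 11.59, 11.16 and 11.74. Replicate 2 was the lowest of its group in both genotypes in the third window.

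*cup* fell by 3.72 over the course in wild-type (standard error 0.33, adjusted p = 7.2e-07 from limma) and fell by 3.02 in *brat* mutant embryos (standard error 0.28, adjusted p = 2.6e-06). In the first 2 windows its mutant samples lay just below the wild-type samples without overlap. Its genotype differences were −0.25, −0.34, 0.03 and 0.45 in the 4 windows, with adjusted p from 0.271 to 0.974. The 95% interval in the last window, −0.05 to 0.95, still held a difference close to 1. For the third window it was −0.88 to 0.95, and the sign there turned without wild-type replicate 2 (−0.43) and without *brat* mutant replicate 3 (−0.29).

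*tral* declined in both genotypes. Its wild-type samples were at 15.12, 15.24 and 15.30 in the first window, at 14.95, 15.08 and 14.77 in the second, at 14.24, 14.02 and 14.16 in the third and at 13.25, 14.14 and 13.94 in the last. Its *brat* mutant samples were at 14.96, 14.92 and 15.11, at 14.84, 14.74 and 14.77, at 14.39, 14.48 and 14.90 and at 14.64, 14.12 and 14.51. Wild-type replicate 1 in the last window was the lowest sample for *tral*, *smg*, *cup* and *me31B* within its group. *tral* fell by 1.44 in wild-type embryos (standard error 0.21, adjusted p = 7e-05 from limma) and fell by 0.57 in *brat* mutant embryos (standard error 0.19, adjusted p = 0.0262), the latter lost in 3 of 6 fits that left out a sample.

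The genotypes did not overlap for *tral* in the first window, with the mutant samples below, nor in the third, with them above. The genotype difference of *tral* was −0.22 and −0.15 at the first 2 windows and 0.45 and 0.65 at the last 2 (adjusted p = 0.23 and 0.145 from limma). The change of this difference from the first window to the last window was 0.87 (standard error 0.28, adjusted p = 0.0612 in the limma fit of all 24 samples), and with dye in that fit it passed (adjusted p = 0.0441). Without wild-type replicate 1 the difference in the last window was 0.38, and the change from the first window was 0.61 (adjusted p = 0.176).

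*me31B* was at 15.08, 14.83 and 15.08 in wild-type embryos in the first window and at 14.93, 14.97 and 15.02 in the second window, and then stepped down in each later window, to 14.31 to 14.42 and to 13.53 to 13.93. Its *brat* mutant samples lay at 14.65, 14.90 and 14.94, then at 14.55, 14.56 and 14.36, then at 13.99 to 14.14 and last at 13.63 to 13.89. In both middle windows the mutant samples lay below the wild-type samples without overlap. The differences were −0.48 (standard error 0.18, adjusted p = 0.146 from limma) and −0.30 (standard error 0.17, adjusted p = 0.318), and the first passed with the spread of all 24 samples (adjusted p = 0.0284).

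Over the course *me31B* fell by 1.22 in wild-type (standard error 0.16, adjusted p = 2.6e-05 from limma) and fell by 1.08 in *brat* mutant embryos (standard error 0.16, adjusted p = 0.000128). Between the third and the last wild-type window it was the only one of the 10 called lower (−0.58, standard error 0.16, adjusted p = 0.0414 from limma), while 6 of the 10 changes were negative. The *me31B* call was lost in each of the 6 fits without a sample (adjusted p = 0.056 to 0.148). Its 2 transcripts gave like steps, −0.60 and −0.56.

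*orb*, which encodes the CPEB protein that promotes poly(A) tail elongation in the oocyte, was at 13.05, 12.99 and 13.05 in wild-type embryos in the first window and at 10.96, 11.26 and 11.29 in the second window. Among mutant samples it was at 12.17, 12.71 and 12.35 and then at 10.91, 10.66 and 10.37. In the third and the last window all samples of both genotypes lay between 8.05 and 8.99, and none of its 3 transcripts passed the test for exceeding the overall transcript mean there. *orb* fell by 4.57 in wild-type (standard error 0.23, adjusted p = 5.5e-09 from limma) and fell by 3.72 in *brat* mutant embryos (standard error 0.25, adjusted p = 3.6e-07). These falls also ended below the sample medians, at group means of 8.46 and 8.69, where the floor may limit them. Since *orb* counted as expressed only through the first and the second window, the filter favours a fall here too.

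*orb* was lower in every *brat* mutant sample than in any wild-type sample in the first window (−0.62, standard error 0.18, adjusted p = 0.0669 from limma) and in the second window (−0.53, standard error 0.22, adjusted p = 0.174). Neither passed as a mean of 3 transcripts. Of the single transcripts, orb-PC passed in the first window (−0.80, standard error 0.21, adjusted p = 0.0315 in the limma fit of single transcripts), and orb-PA and orb-PB were at −0.57 and −0.49. The differences after 3 h were 0.10 and 0.23.

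*Fmr1*, the *Drosophila* orthologue of the fragile X gene, fell in like steps in both genotypes. Wild-type samples lay at 13.12 to 13.24, 12.12 to 12.62, 11.32 to 11.91 and 11.48 to 11.68 in the 4 windows, and *brat* mutant samples at 12.97 to 13.14, 12.04 to 12.38, 11.45 to 11.67 and 11.44 to 11.80. The genotypes overlapped in each window, with differences between −0.13 and 0.06 (adjusted p at least 0.656 from limma). The widest 95% interval, in the second window, was −0.53 to 0.33. Over the course *Fmr1* fell by 1.61 in wild-type (standard error 0.19, adjusted p = 1.1e-05 from limma) and fell by 1.42 in *brat* mutant embryos (standard error 0.17, adjusted p = 2.1e-05). Its step from the second to the third window in the mutant, −0.63 (adjusted p = 0.0307 from limma), was lost in 5 of 6 fits that left out a sample, all but that without replicate 3 of the third window (adjusted p up to 0.0936). Among its transcripts, the wild-type step between these windows was −1.06 for Fmr1-PB (adjusted p = 0.0026 in the limma fit of single transcripts) and −0.43 for both Fmr1-PA and Fmr1-PE (adjusted p = 0.146 and 0.132).

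*pAbp*, which encodes the protein on poly(A) tails, kept its level. It ranged from 14.32 to 14.85 over the 12 wild-type samples and from 14.59 to 15.10 over the 12 *brat* mutant samples, and no step over time passed in either genotype. Its change over the course was 0.04 in wild-type (95% interval −0.26 to 0.35) and 0.10 in *brat* mutant embryos (−0.23 to 0.42), and both were negative under ribosomal protein scaling (−0.38 and −0.24). From the second window on each mutant sample was above each wild-type sample, with differences of 0.19, 0.42 and 0.14 (adjusted p = 0.584, 0.201 and 0.584 from limma).

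**Figure D3:**
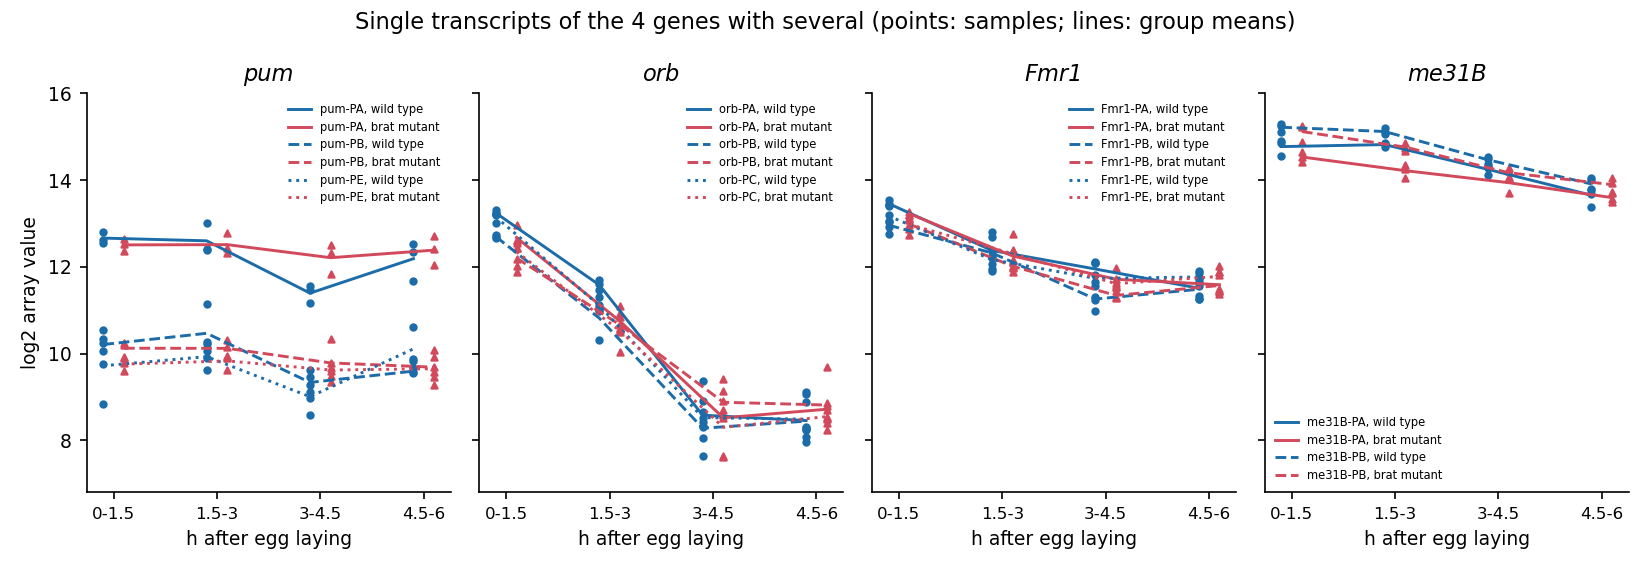
Levels of the single transcripts (log2 array value, vertical axis) of the 4 genes measured by several, against the collection window (horizontal axis, h after egg laying), with points for samples, lines through group means, line styles for transcripts and colours for genotypes. pum-PA lies well apart from pum-PB and pum-PE and shows the wild-type dip to 11.40 in the third window, and the 3 transcripts of *orb* and of *Fmr1* and the 2 of *me31B* all end below their first-window levels.

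The falls over time were more common. In wild-type embryos 3 of 10 (*nos*, *orb* and *Fmr1*) were lower in the second window than in the first window, where 25.8% of all expressed genes were. Then 8 of 10, all but *brat* and *pAbp*, were lower in the third window than in the second window, where 24.9% of all expressed genes were, with a median of −0.94 against −0.03 over all expressed genes. From there to the last window only *me31B* was called lower (4.02% of all expressed genes). From first to last window 7 of 10 were lower and none higher (34.7% of all expressed genes were lower). Genes expressed only in an early window, such as *nos* and *orb*, enter these counts and shares through a filter that favours falls. The same holds for the *brat* mutant counts below.

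Among *brat* mutant embryos 4 of 10 (*nos*, *cup*, *orb* and *Fmr1*) were lower in the second window than in the first window, where 19.8% of all expressed genes were, and *brat* was higher (12.3%). The call of *cup* here (−0.85, adjusted p = 0.0323 from limma) was lost in each of the 6 fits without a sample (adjusted p = 0.0573 to 0.0979) and with no filter (0.0571). The same 4 were lower again in the third window (7.82% of all expressed genes), with a median of −0.39 for the 10. From there to the last window none passed with limma, and none had an unadjusted p under 0.05 or passed with limma-trend (0.385% of all expressed genes passed with limma). From first to last window 6 of 10 were lower (28.5% of all expressed genes) and *brat* was higher (18.3%). *smg*, *tral*, *pum* and *me31B* were thus lower in the third window than in the second by the test in wild-type but not in *brat* mutant embryos. Of these 4, the difference between the genotypes in that step passed for *smg* (1.46, adjusted p = 0.0285 from limma) and not for *pum* (0.81, adjusted p = 0.0925), *tral* (0.59, adjusted p = 0.228) or *me31B* (0.18, adjusted p = 0.694). This contrast was added after seeing the data.

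**Figure D4:**
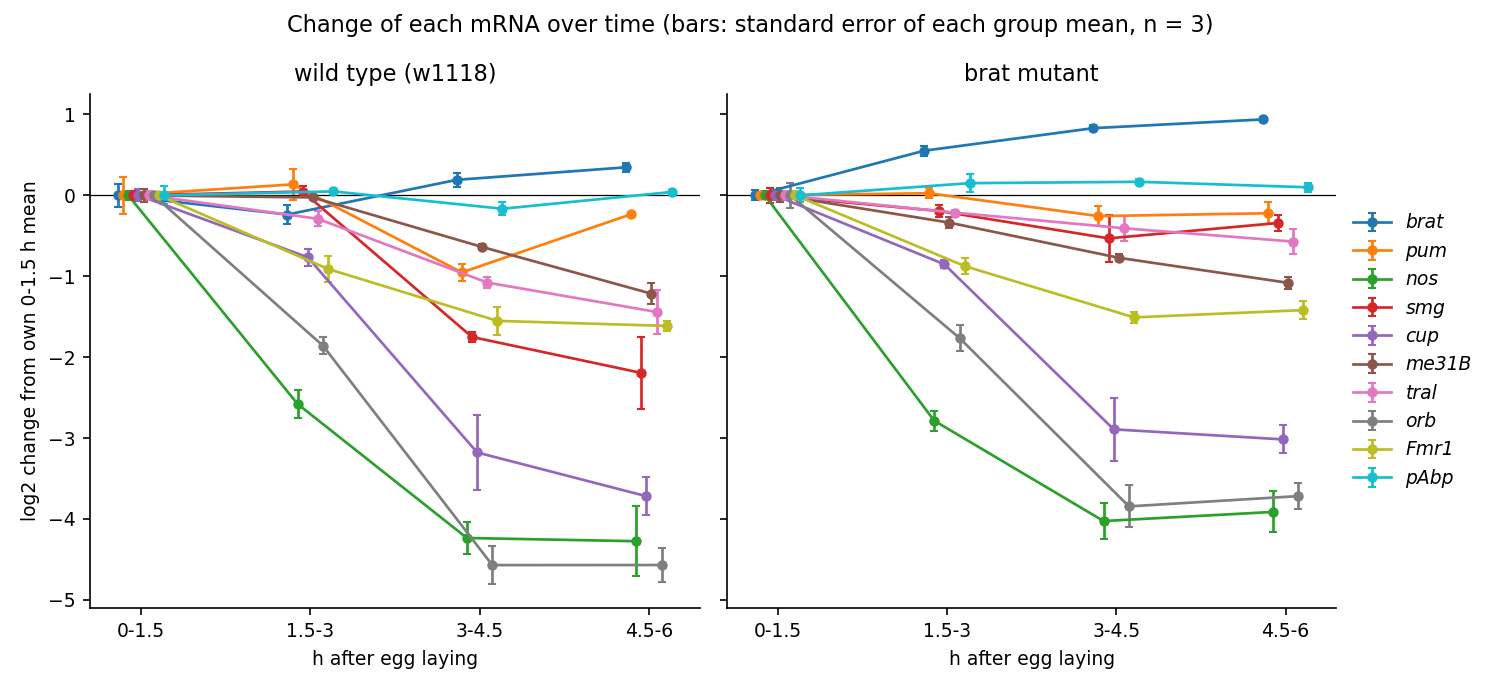
Change of each mRNA from its own mean in the first window (log2, vertical axis) against the collection window (horizontal axis, h after egg laying) in wild-type (left) and *brat* mutant embryos (right), with the standard error of each group mean (n = 3) as bars. *nos* and *orb* end lowest in both panels, at −4.27 and −4.57 in wild-type embryos, and the *smg* line reaches −2.19 in wild-type but −0.34 in *brat* mutant embryos.

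Where the 8 groups of an mRNA were put in order of level, most neighbours did not differ beyond their spread. The pairs were set by the same levels that were then tested. None of the 7 neighbouring pairs differed for *me31B*, *tral* and *pAbp*, and 1 did for *brat*, *pum*, *smg* and *cup*. For *brat* it was the step down to *brat* mutant embryos in the first window, the lowest group, and for *pum* that down to wild-type embryos in the third window, the lowest group. The pairs of *pum* and *smg* are the genotype contrast of the third window in another fit. For *cup* it was the step from *brat* mutant embryos in the second window to those in the third window. For *nos*, *orb* and *Fmr1* 2 pairs differed, which set apart the 2 groups in the first window, the 2 in the second window and the 4 later ones. The same number of pairs differed for each mRNA with dye in the fit.

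The group levels of *nos*, *orb* and *Fmr1* ran together (Pearson's r over the 8 groups 0.973 for *nos* and *orb*, 0.996 for *nos* and *Fmr1* and 0.985 for *orb* and *Fmr1*), and those of *smg* ran closest to *tral* (0.916). The groups share their arrays' normalization and the stage, so these are descriptions. Outside the set, the gene whose 8 group means correlated best was *JhI-21* for *smg* (r = 0.991), *cta* for *pum* (0.993), *Nsun2* for *brat* (0.975), *Hsp26* for *Fmr1* (0.995) and *norpA* for *cup* (0.991). It was *CG6287* for *nos* (0.998), *superdeath* for *orb* (0.997), *CG5214* for *me31B* (0.991), *Marf1* for *tral* (0.993) and *nst* for *pAbp* (0.958). With *nos* 258 genes correlated above 0.95, with *smg* 47, with *pum* 7 and with *brat* 1. With Spearman's rho the best gene was another one for 9 of the 10, the exception being *pAbp*.

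Few genes of the machinery that these proteins recruit passed within a window. Of 9 expressed members of the CCR4-NOT deadenylase and its partners none passed with limma in any window, with differences from −0.52 to 0.43. In the third window 1 of them had an unadjusted p under 0.05 and passed with limma-trend, and in the other windows 0 did either. Of 5 expressed decapping and decay factors 1 passed, *LSm1*, lower in the first window (−0.76, adjusted p = 0.0318 from limma). In the last 2 windows none of these 5 passed with limma, while 1 and 2 had an unadjusted p under 0.05 and limma-trend called 1 in each. *Edc3*, a decapping enhancer, passed for a change of its genotype difference, which was 1.39 higher in the third window than in the second (adjusted p = 0.0107 from limma) and 0.93 higher in the last than in the second (adjusted p = 0.0498). Both contrasts were added after seeing the data, and none of these 5 passed in the planned contrasts with the first window. Of 28 other expressed maternal RNA-binding and translation regulators 3 were lower in the first window, among them *tud* (−1.10), a germ plasm gene, and *armi* (−0.92), of the piRNA pathway, and 1 was lower in the second window, *BicC* (−1.43). None of this list was higher in these windows. From 3 to 4.5 h 2 were higher, *swa* (2.81, adjusted p = 0.014 from limma), needed for *bicoid* mRNA localization, and *osk* (1.50, adjusted p = 0.034), the germ plasm organizer. In the last window 3 were higher, *swa* (2.53) and *spn-E* (1.70) among them, and none was lower. The median of the list was −0.12, 0.04, 0.13 and −0.06 in the 4 windows. For 3 of these 28 the genotype difference was higher in the third window than in the second, *swa* (2.35) among them, and for none lower. Of all expressed genes 2.85% were called higher there. In the planned contrasts with the first window, 3 were higher and none lower in the third window. In the last window 4 were higher and 1 lower than in the first (3.41% of all expressed genes were higher). Against the second window 3 were higher and 2 lower in the last (5.23% were higher). The contrasts with the second window were added after seeing the data.

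Of the 2 expressed PAN GU kinase subunits, which act upstream of *smg* translation, *gnu* was lower in the second window (−1.36, adjusted p = 0.0483 from limma). Of 9 expressed mRNAs known as targets of the 10 proteins, *pgc* (−1.54) and *Hsp83* (−0.92), a target of Smaug, were lower in the second window, and in the first none passed with limma (2 had an unadjusted p under 0.05 and 2 passed with limma-trend). *osk*, a target of Cup, was the 1 of these 9 higher in the third window, and in the last window *bcd*, a target of Pumilio, was higher (1.62, adjusted p = 0.0222 from limma) and 2 were lower, among them *pgc* (−1.07). The shares of all expressed genes called in each window stand with the counts of the 10 mRNAs above.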

How the data were processed

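RNA of 24 embryo samples was labelled with Cy3 or Cy5 and put on custom NimbleGen arrays that each took 1 Cy3 and 1 Cy5 sample. The authors ran RMA with quantile normalization in ArrayStar 12 over the 24 samples, and the deposited values are log2 signals per transcript; which samples made up an array is not given in the sources used here. Of 17775 transcripts 6 had no value. Genotype, time, replicate and dye came from the labels. Symbols were updated through RefSeq (assembly Release 6 plus ISO1 MT) by symbol for 11822 transcripts and by a unique synonym or locus tag for 4874, and 1073 kept the name in the table. A transcript was expressed where it exceeded the overall transcript mean in some group (limma, one-sided, FDR 5%). A gene was the mean of its expressed transcripts. Tests were two-sided with limma 3.58.1 in R 4.3.3 and Benjamini-Hochberg adjustment over all 5718 expressed genes: 6 samples of a window for genotype, 12 of a genotype for time, and 24 for differences between windows and for the order of levels. limma took the place of the authors' SAM, since exact permutation of 3 against 3 samples has a smallest p of 0.1. Members and lists were chosen with earlier results of these data known; the genes most like each member were those with the highest Pearson's r over 8 groups, and the examples of a list its 2 called genes with the largest difference. Scripts were tested on simulated data. Figures used matplotlib 3.10.9 in Python 3.11.15. Alternatives were 1 fit of all samples, dye, replicate block, no filter, all transcripts, single transcripts, limma-trend, ribosomal protein scaling and each sample left out. The contrasts of a genotype difference with that in the second window (1.5 to 3 h) were added after seeing the data. Precision is limited by the number of arrays.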

Additional observations from a re-analysis of the deposited data

Results flagged for a closer look

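The difference between *brat* mutant and wild-type embryos in *smg* level changed over the windows. It was 1.85 higher (log2, limma on all 24 samples, adjusted p = 0.0039) in the last window than in the first window and 2.09 higher than in the second window (adjusted p = 0.00223 from limma). In the third window it was 1.46 higher than in the second window (adjusted p = 0.0285 from limma). These are flagged because 2 windows gave different effects in a test of the difference itself. Leaving out 1 sample ended the last of these calls in 5 of 12 fits and the other 2 in none. The 2 contrasts with the second window were added after seeing the data. The planned contrast of the third with the first window did not pass (1.22, adjusted p = 0.0617 from limma). Groups of 3 samples are too small for the formal test of a single outlying sample.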

How the results depend on the processing

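Results here are log2 differences of members and counts of members that passed. Of the 8 settings other than leaving out a sample, calls of members between genotypes in the first window went from 1 to 0 with dye, the replicate block, no filter on expressed transcripts and ribosomal protein scaling and to 2 with limma-trend; in the second window from 0 to 1 with a fit of all 24 samples and limma-trend; in the third window from 1 to 2 with these and to 0 with dye, the block and no filter; and in the last window from 1 to 2 with these same first 2 settings. Calls over time in wild-type embryos went from 3 to 6, all falls, between the first 2 windows with ribosomal protein scaling. Between the last 2 they went from 1 to 2 with the fit of all 24 samples, dye and the block, which added the rise of *pum* (adjusted p = 0.0216, 0.0444 and 0.0275 from limma) to the fall of *me31B*, and to 0 with no filter and single transcripts. Calls of a changed genotype difference went from 0 to 1 in the second window with limma-trend, from 0 to 1 with dye and to 2 with limma-trend in the third window, and from 1 to 2 with dye and to 3 with limma-trend in the last window, all against the first window; against the second window they went from 1 to 0 with no filter in the third window and from 1 to 2 with limma-trend in the last window. The cause was not tested. With 1 sample left out these counts ranged from 0 to 1 between genotypes in the first and the third window, from 0 to 1 between the last 2 wild-type windows (from 1), from 3 to 4 between the first 2 *brat* mutant windows (from 5, that is 4 falls and 1 rise; *cup* was lost in each), and, for the genotype difference, from 0 to 1 in the third window and from 1 to 2 in the last window against either early window. Over all expressed genes the calls between genotypes were 499, 456, 210 and 699 in the 4 windows, against 410, 829, 872 and 870 in the fit of all 24 samples, 335, 204, 65 and 420 with dye, 474, 368, 131 and 526 with the block, 322, 284, 123 and 507 with no filter and 564, 583, 490 and 948 with limma-trend. Without 1 sample these all-gene counts ranged from 252 to 619, from 148 to 286, from 8 to 333 and from 314 to 512. Signs turned only for differences that did not pass. With dye *Fmr1* went to 0.0185 in the third window and to −0.0151 in the last window; with ribosomal protein scaling *brat* went to 0.0143 in the third window and, over the course, to −0.0701 in wild-type embryos, and *pAbp* went to −0.38 in wild-type and −0.24 in *brat* mutant embryos. That scaling moved the median of all genes over the course from −0.15 to −0.57 in wild-type and from −0.16 to −0.50 in *brat* mutant embryos. With 1 sample left out, the genotype difference ranged in the first window from −0.0023 to 0.19 for *pAbp* and from −0.30 to 0.0587 for *pum*; in the second window from −0.20 to 0.0645 for *Fmr1*; in the third window from −0.26 to 0.0406 for *Fmr1*, from −0.12 to 0.0235 for *brat*, from −0.43 to 0.38 for *cup*, from −0.33 to 0.0263 for *nos* and from −0.0622 to 0.36 for *orb*; and in the last window from −0.0177 to 0.16 for *Fmr1*, from −0.16 to 0.0363 for *me31B*, from −0.29 to 0.38 for *nos* and from −0.14 to 0.0784 for *pum*. The change of *pAbp* over the wild-type course ranged from −0.0464 to 0.14 and that of the *tral* difference to the second window from −0.0056 to 0.15.

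Of 12 pairs with the same replicate number 2 had deviations correlated above 0.1 (r from −0.08 to 0.18). Of the 12 *brat* mutant samples 4 correlated best with the wild-type sample of their own number. By the dye layout given above, the members of each such pair carried different dyes. These correlations took no account of dye, so they cannot decide whether equal numbers were paired. With the replicate number as a block *smg* stayed called in the last window and *brat* in the first window (adjusted p = 0.0564 from limma) and *smg* in the third window (adjusted p = 0.0696) were not. With 3 samples a group, small differences cannot be told from none, and levels near the floor, as of *nos* and *orb* after 3 h, limit the falls.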
